A study of Rattus norvegicus with 4 samples.

Results

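Values were examined for 8 rat mature microRNAs (miRNAs) of the miR-7, miR-9, miR-129 and miR-124 families, out of 765 miRNAs with deposited values. They are rno-miR-7a-5p, rno-miR-7a-1-3p, rno-miR-7b, rno-miR-9a-5p, rno-miR-9a-3p, rno-miR-9b-3p, rno-miR-129-5p and rno-miR-124-3p. They were chosen by family and selected on measured values, namely opposite hypoxia to normoxia ratios in cells and in exosomes, so these ratios are given as a description. The study used H9c2, an immortal cardiomyoblast line from rat heart, cultured for 48 h in medium with exosome-depleted serum, either in normoxia or in a chamber in which an oxygen absorber made the cells hypoxic. Small RNA was sequenced from normoxic cells, hypoxic cells, and the exosomes of each culture, vesicles collected from the medium by ultracentrifugation. Each condition was 1 library, so no difference described here could be tested against replicates, and p-values are left out.

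A miRNA is cut from a hairpin precursor, and either arm of the hairpin (5p or 3p) can be loaded into the silencing complex, where bases 2 to 8 of the miRNA, the seed, pair with target mRNAs. The 4 families are best known from nervous tissue. miR-7 is also abundant in endocrine cells and represses alpha-synuclein, miR-9 acts in neural progenitors, miR-129 acts on neuronal excitability, and miR-124 is the most abundant miRNA of mature neurons and represses the splicing regulator Ptbp1.

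The mature sequences of the arms on which the results turn are shown 5′ to 3′, with the seed in capitals, because they tell which arms share a seed and which could share reads. They were taken from RefSeq (build GRCr8), in which 7 of the 8 miRNAs were matched by name.
rno-miR-7a-5p: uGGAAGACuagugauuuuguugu
rno-miR-7b: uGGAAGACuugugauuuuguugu
rno-miR-9a-5p: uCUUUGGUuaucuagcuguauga
rno-miR-9a-3p: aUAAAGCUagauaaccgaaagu
rno-miR-9b-3p: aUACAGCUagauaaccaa
rno-miR-129-5p: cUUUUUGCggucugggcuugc
rno-miR-129-1-3p: aAGCCCUUaccccaaaaag
rno-miR-129-2-3p: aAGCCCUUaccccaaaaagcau

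miR-7a-5p and miR-7b had the same seed, and they differed by 1 substitution, A10U, counted from the 5′ end of miR-7a-5p. miR-9b-3p is annotated on hairpins (Mir3597-2 and Mir3597-3) that lie on the strand opposite to Mir9-2 and Mir9-3, and all 18 of its bases matched the reverse complement of miR-9a-5p. It also matched 16 of 18 bases of miR-9a-3p, with the substitutions A4C and G17A counted from the 5′ end of miR-9a-3p. Whether the authors counted reads by strand is not given in the sources used here, and without strand the reads of miR-9b-3p and miR-9a-5p could not be told apart. All 19 bases of miR-129-1-3p are the first bases of miR-129-2-3p, so reads of these 3p arms may be shared. miR-7a-5p can come from 2 hairpins, of which Mir7-1 lies within Hnrnpk, the gene of an RNA-binding protein. miR-9a-5p can come from 3 hairpins and miR-129-5p from 2. None of the 7 matched sequences held the letters GGAG, a motif searched on the miRNA strand because it has been linked to loading into exosomes, and 7.97% of the 690 deposited miRNAs with a sequence held it.

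The authors deposited RPM, read numbers divided by a total set for each library. All values were whole multiples of 1 step in their library, within 0.1 of a step, and the smallest value above 0 was 10 steps, so a step was read as 1 read and a miRNA under 10 reads is listed at 0. A miRNA with at least 10 reads is called identified here. The scale stood for 10404866 to 13285239 reads, of which miRNAs held 5310302 in normoxic cells, 3578371 in hypoxic cells, 13598 in normoxic exosomes and 108860 in hypoxic exosomes. miRNAs were thus 51.0% and 26.9% of the scale in cells and 0.115% and 0.881% in exosomes, and all RPM ratios carry this difference. Intervals are 95% exact (Clopper-Pearson) intervals of the read numbers. They hold the counting error of reads alone, with no variation between cultures or libraries. Reads amplified by PCR do not each stand for a separate molecule, so the intervals can be too narrow even for counting error. In bulk RNA, fewer cells with a miRNA and less of it per cell cannot be told apart.

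Of the 8 miRNAs, 6 were identified in normoxic cells, 5 in hypoxic cells and 4 in each library of exosomes, and these 4 were identified in all libraries. miR-124-3p and miR-9a-3p were listed at 0 in all libraries. The neuronal name of the group was therefore only partly borne out by its markers. Of 7 neuronal markers, a list that includes miR-124-3p and miR-9a-5p, 3 were identified in cells and 2 in exosomes, and miR-124-3p, miR-124-5p, miR-137-3p and miR-153-3p were at 0 throughout. The summed level of the list was 375 RPM in normoxic cells, 216 RPM in hypoxic cells and 4.21 to 5.26 RPM in exosomes. Of 7 markers of heart and skeletal muscle, 3 were identified in normoxic cells and 2 in hypoxic cells, with 32.2 and 14.2 RPM in all. In this list miR-133a-3p, miR-133b-3p, miR-208a-3p and miR-208b-3p were at 0 in all libraries. Of the endocrine markers, miR-375-3p was identified in hypoxic exosomes only, at the minimum of 10 reads, whereas the other, miR-7a-5p, is a member.

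miR-7a-5p had 3754 RPM in normoxic cells, 771 RPM in hypoxic cells, 1.69 RPM in normoxic exosomes and 3.08 RPM in hypoxic exosomes. It was high in both libraries of cells and near the lower limit of the table in both libraries of exosomes. In cells it was rank 20 of 338 identified miRNAs in normoxia and rank 44 of 331 in hypoxia. In exosomes it was rank 54 of 74 and rank 86 of 144. These low ranks rest on 20 reads under normoxia and 38 under hypoxia, against 39060 and 10242 reads in cells.

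miR-129-5p had 3737 RPM in normoxic cells, 988 RPM in hypoxic cells, 74.4 RPM in normoxic exosomes and 709.8 RPM in hypoxic exosomes. In cells it stood beside miR-7a-5p, at rank 21 in normoxia and rank 37 in hypoxia. In exosomes it was among the leading miRNAs, rank 5 with 883 reads in normoxia and rank 4 with 8768 reads in hypoxia. It held 6.49% (95% interval 6.09% to 6.92%) of the miRNA reads of normoxic exosomes and 8.05% (7.89% to 8.22%) of those of hypoxic exosomes, compared with 0.732% and 0.367% in the cells.

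The miR-9 arms were of low abundance in cells, where miR-9a-5p was rank 169 in normoxia and rank 198 in hypoxia and miR-9b-3p rank 150 and rank 180. Among the fewer miRNAs of exosomes miR-9a-5p was rank 35 of 74 in normoxia and rank 84 of 144 in hypoxia. miR-9b-3p was rank 20 of 74 and rank 75 of 144, with 0.544% and 0.0514% of the miRNA reads. miR-9a-5p, which in neural progenitors represses the nuclear receptor Nr2e1, had 25.8 RPM in normoxic cells, 8.13 RPM in hypoxic cells, 2.61 RPM in normoxic exosomes and 3.40 RPM in hypoxic exosomes. miR-9b-3p had 33.2, 11.4, 6.24 and 4.53 RPM in the same order. Both were higher in each library of cells than in each library of exosomes. The minor arm miR-7a-1-3p had 5.19 RPM in normoxic and 2.79 RPM in hypoxic cells, and miR-7b had 2.88 RPM in normoxic cells. In the other libraries these last miRNAs were listed at 0, where 10 reads are 0.753 to 0.843 RPM.

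**Figure D1:**
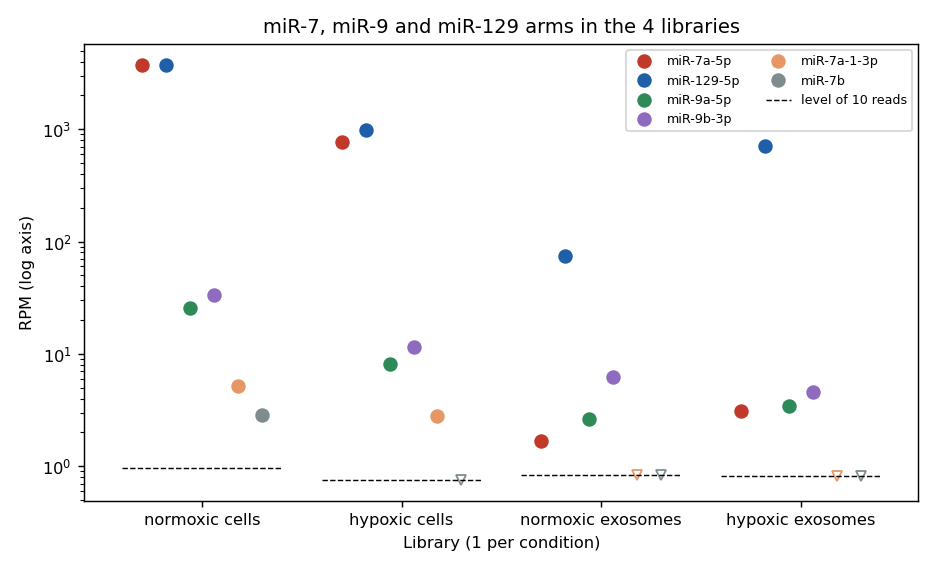
RPM (log axis) of 6 arms in the 4 libraries, 1 point per arm and library. Dashed lines mark the level of 10 reads and open triangles, drawn at that level, mark arms listed at 0. miR-7a-5p and miR-129-5p lie together in cells and apart in exosomes.

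The order of the levels in normoxic cells was miR-7a-5p, miR-129-5p, miR-9b-3p, miR-9a-5p, miR-7a-1-3p and miR-7b. The first 2 neighbours in this order did not differ beyond counting error, with a ratio of reads of miR-129-5p to miR-7a-5p of 0.995 (0.982 to 1.01). In hypoxic cells miR-129-5p was 1.28 times (1.25 to 1.31) as abundant as miR-7a-5p. In exosomes it had 44.2 times (28.4 to 72.6) the reads of miR-7a-5p in normoxia and 231 times (168 to 326) in hypoxia. A ratio within a library does not depend on the scale of the library, but miRNAs can differ in how well they are ligated and amplified, so the comparison is between libraries. Relative to the cells, the ratio was 44.4 times as high in normoxic exosomes and 180 times as high in hypoxic exosomes.

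In cells, hypoxia to normoxia ratios were below 1 for all 5 of the 8 miRNAs identified in both libraries. The same was true of 274 of the 316 miRNAs identified in both. Of the 5, miR-7a-5p had the lowest ratio, 0.205 (0.201 to 0.210), which was rank 3 from the lowest of 316 miRNAs. miR-129-5p followed with 0.264 (0.259 to 0.270), miR-9a-5p with 0.316 (0.250 to 0.396) and miR-9b-3p with 0.345 (0.283 to 0.419), the last 2 not differing beyond counting error. miR-7a-1-3p had a ratio of 0.537 (0.343 to 0.831). A fold rule alone was used for calls, with no test behind it. By this rule 4 of the 5 were below 0.5, where 27.8% of the 316 miRNAs were. The members were chosen by this contrast, so nothing is read from the count.

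In exosomes only miR-129-5p was above the fold of 2. Its ratio of 9.54 (8.90 to 10.2) was rank 48 from the lowest of 73 miRNAs. miR-7a-5p had a ratio of 1.83 (1.04 to 3.31), miR-9a-5p 1.30 (0.799 to 2.14) and miR-9b-3p 0.727 (0.504 to 1.04), and the intervals of both miR-9 arms included 1. The count of 1 of 4 stands beside 84.9% of the 73 miRNAs that were above 2, and again the rule used this contrast. The opposite direction that defines the group was present in RPM for miR-7a-5p, miR-9a-5p and miR-129-5p but not for miR-9b-3p, which was lower in hypoxia in both cells and exosomes. It was not particular to them, since of the 71 miRNAs found in every library, 63 (88.7%) had a ratio under 1 in cells together with a ratio over 1 in exosomes.

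Scaled to the miRNA total, the ratios in cells were 0.389 for miR-7a-5p, 0.501 for miR-129-5p, 0.598 for miR-9a-5p, 0.654 for miR-9b-3p and 1.02 for miR-7a-1-3p. The ratio of miR-7a-1-3p was thus on the other side of 1 on this scale. In exosomes the scaled ratios were 1.24 (1.16 to 1.33) for miR-129-5p, 0.237 (0.135 to 0.430) for miR-7a-5p, 0.169 (0.104 to 0.278) for miR-9a-5p and 0.0945 (0.0656 to 0.136) for miR-9b-3p. As shares of miRNA reads, miR-7a-5p and both miR-9 arms were therefore lower under hypoxia in cells and in exosomes, and of the 4 members in all libraries miR-129-5p alone kept the opposite direction. How many of the other miRNAs kept it on this scale is not given here, so it is not called particular to miR-129-5p. The log2 shift of the total that this scaling takes out was -0.92 in cells and 2.94 in exosomes.

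**Figure D2:**
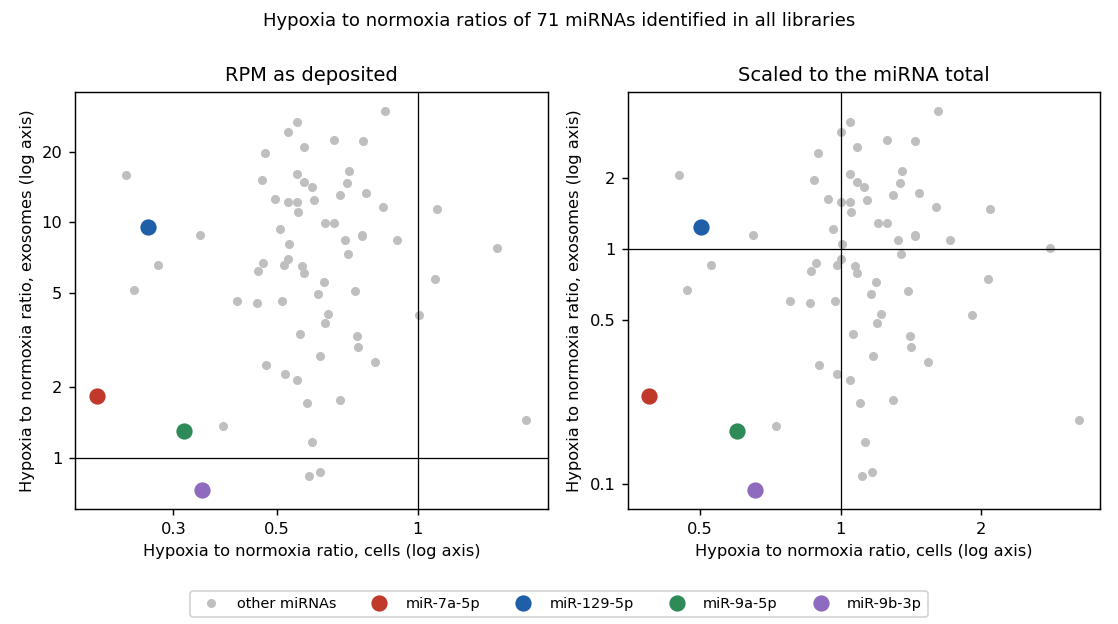
Hypoxia to normoxia ratios in cells (x, log axis) and exosomes (y, log axis) for the 71 miRNAs identified in all libraries, in RPM (left) and scaled to the miRNA total (right). Lines mark a ratio of 1. On the right, miR-7a-5p, miR-9a-5p and miR-9b-3p lie below 1 on both axes, and miR-129-5p at 0.501 and 1.24.

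Exosomes were then compared with the cells of the same condition by the share of miRNA reads. The ratios rest on the same 4 values per miRNA as the choice of members and are given as a description. Under normoxia the share in exosomes over that in cells was 83.8 (64.3 to 108) for miR-9b-3p, 45.2 (30.1 to 65.7) for miR-9a-5p, 8.87 (8.29 to 9.48) for miR-129-5p and 0.200 (0.122 to 0.309) for miR-7a-5p. These 3 miRNAs above 2 and 1 below 0.5 stand beside 42.5% and 30.1% of the 73 miRNAs identified in both libraries. Under hypoxia the same 3 were above 2 and miR-7a-5p below 0.5, beside 44.9% and 31.9% of 138 miRNAs. At their shares in cells, miR-9a-5p and miR-9b-3p would have had 0.686 and 0.883 reads in normoxic exosomes and 3.29 and 4.62 in hypoxic exosomes. With a minimum of 10 reads, a ratio listed for either miR-9 arm had to lie above 2. Nothing is read from the calls of the miR-9 arms. The ratios under hypoxia were 22.0 (21.4 to 22.6) for miR-129-5p, 12.8 (8.73 to 18.4) for miR-9a-5p, 12.1 (8.75 to 16.6) for miR-9b-3p and 0.122 (0.0863 to 0.168) for miR-7a-5p. How these ratios moved between the conditions is the scaled hypoxia to normoxia ratio in exosomes divided by that in cells. It therefore adds nothing to the scaled ratios above, and the members were chosen on the same contrast in RPM. In RPM, where miRNAs were a small part of the exosome reads, all 4 were lower in exosomes than in cells. Of the 4, miR-7a-5p was lower by shares as well.

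The same comparison can be put in reads. At its share in cells, miR-7a-5p would have had 100.02 reads in normoxic exosomes and 312 in hypoxic exosomes, where 20 and 38 were found. miR-129-5p would have had 99.6 and 399 reads, where 883 and 8768 were found. For miR-9a-5p, 31 and 42 reads were found where its share in cells gives 0.686 and 3.29. For miR-7a-1-3p the share in cells gives 0.138 and 1.13 reads, and for miR-7b 0.0768 reads in normoxic exosomes, so a lower share in exosomes was not detectable at this depth.

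Markers of liver and blood, which could reach the medium with serum, are given beside the miR-9 arms because these had few reads in exosomes. Of 5 such markers, 4 were identified in normoxic cells, 3 in hypoxic cells, 2 in normoxic exosomes and 3 in hypoxic exosomes, and miR-223-3p was at 0 in all libraries. Their summed level was 19.9 and 7.68 RPM in cells and 14.7 and 34.7 RPM in exosomes, in normoxia and hypoxia. Their part in the miR-9 values was not tested.

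**Figure D3:**
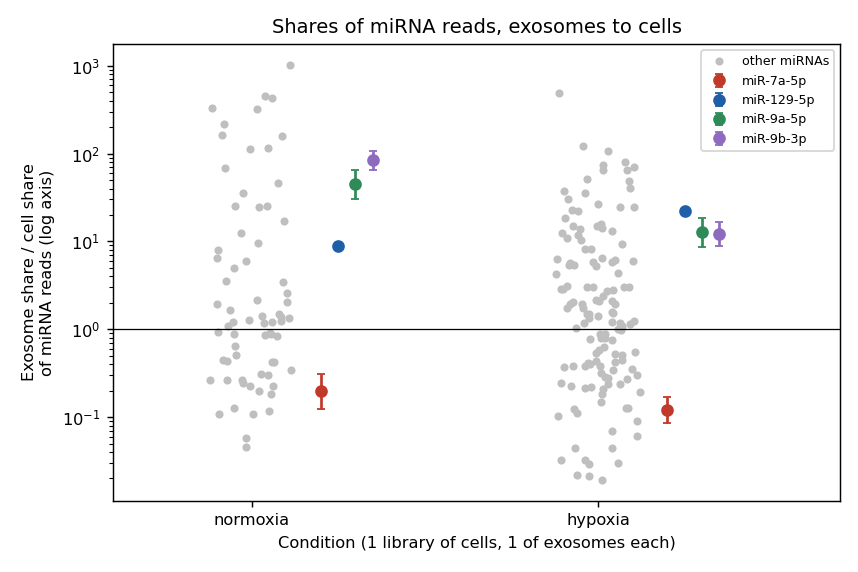
Share of miRNA reads in exosomes divided by that in cells (log axis) under normoxia and hypoxia, with grey points for other miRNAs identified in both libraries and bars for 95% exact counting intervals. miR-7a-5p lies below 1 in both conditions (0.200 and 0.122) and the other 3 above 1.

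The arms of 1 hairpin can be set against each other within a library. In cells the 5p arm of miR-7a had 723 times (554 to 963) the reads of miR-7a-1-3p in normoxia and 277 times (201 to 393) in hypoxia. The major arm was thus lower in hypoxia relative to its partner. The partner of the other miR-7a hairpin, miR-7a-2-3p, was listed at 0 in all libraries. miR-7b held 0.0767% of the reads of miR-7a-5p and miR-7b together in normoxic cells. At the same ratio to miR-7a-5p it would have had 7.87 reads in hypoxic cells, under the minimum of 10, so a change of miR-7b beyond that of miR-7a-5p could not be detected.

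The 3p arms of miR-129 did not follow the 5p arm. miR-129-1-3p had 382 RPM in normoxic cells, 279 RPM in hypoxic cells and 2.59 RPM in hypoxic exosomes, and was listed at 0 in normoxic exosomes. Its hypoxia to normoxia ratio in cells was 0.731 (0.699 to 0.765), compared with 0.264 for the 5p arm, and miR-129-2-3p had a ratio of 1.01 (0.693 to 1.49) from 51 and 66 reads. The 5p arm had 9.78 times (9.47 to 10.1) the reads of miR-129-1-3p in normoxic cells and 3.54 times (3.41 to 3.67) in hypoxic cells. In hypoxic exosomes it had 274 times (194 to 401) the reads, and in normoxic exosomes, where the 3p arm had under 10 reads, at least 88.3 times. At the ratio of the arms in hypoxic cells, the 8768 reads of miR-129-5p in hypoxic exosomes would go with 2479 reads of miR-129-1-3p, and 32 were found. In normoxic exosomes the ratio in cells gives 90.3 reads, where fewer than 10 were found. With both 3p arms summed, the ratio in cells was 9.66 under normoxia and 3.47 under hypoxia.

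The antisense arm miR-9b-3p stayed close to miR-9a-5p in all libraries. It had 1.29 times (1.09 to 1.52) the reads of miR-9a-5p in normoxic cells, 1.41 times (1.09 to 1.82) in hypoxic cells, 2.39 times (1.55 to 3.76) in normoxic exosomes and 1.33 times (0.878 to 2.04) in hypoxic exosomes. The ratio in normoxic exosomes was above that in normoxic cells beyond counting error, and its interval overlapped those of the other libraries. miR-9a-3p, on the same hairpins as miR-9a-5p, was listed at 0 throughout.

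**Figure D4:**
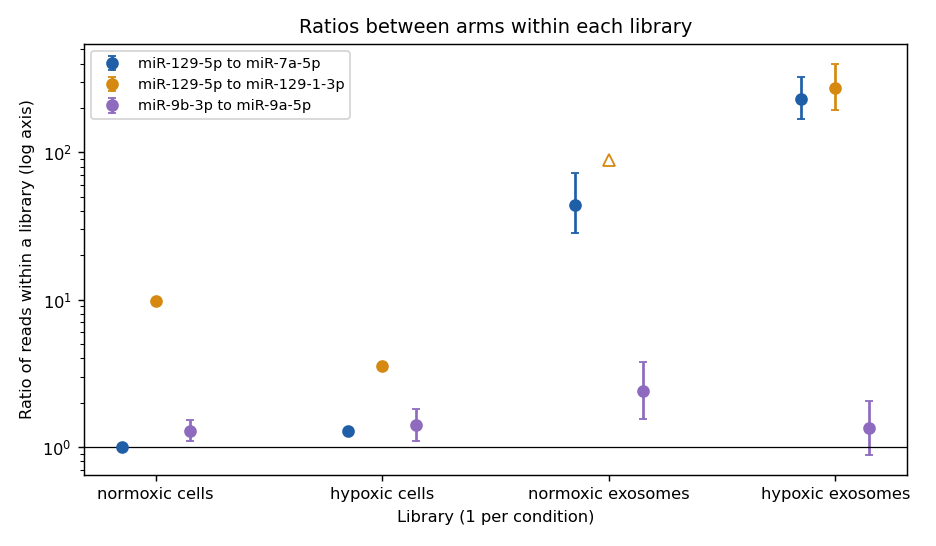
Ratios of reads between arms within each library (log axis), with 95% exact counting intervals. The open triangle is a lower bound, set with 10 reads for miR-129-1-3p in normoxic exosomes. The ratio of miR-129-5p to miR-7a-5p goes from 0.995 and 1.28 in cells to 44.2 and 231 in exosomes, and that of miR-9b-3p to miR-9a-5p lies between 1.29 and 2.39.

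The patterns of the members over the 4 libraries differed from each other. Likeness was measured as the Euclidean distance between log2 RPM values, each centred on its mean over the 4 libraries, so that small values mean alike. miR-9a-5p and miR-9b-3p lay 0.73 apart and miR-129-5p lay 2.19 from miR-9a-5p, whereas miR-7a-5p lay 6.70 to 7.75 from the other 3. Among the 67 other miRNAs identified in all libraries, the nearest to miR-7a-5p were let-7g-5p (1.04), let-7c-5p (1.23) and let-7a-5p (1.37), where the median distance was 3.81. let-7g-5p, for example, had 4411 and 2436 RPM in the cells and 2.61 and 5.59 RPM in the exosomes, normoxia first. The nearest to miR-129-5p were miR-125b-1-3p (0.38), miR-22-3p (1.10) and miR-151-5p (1.19), with a median distance of 3.83. miR-125b-1-3p had 459, 157, 13.0 and 115 RPM in the same order. The nearest to miR-9a-5p were miR-193a-5p (0.77), miR-22-3p (1.42) and miR-99a-5p (1.47), and to miR-9b-3p miR-193a-5p (1.27), miR-22-3p (2.06) and miR-760-3p (2.07). The 4 libraries are all the values behind these distances.

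A list of 30 other arms known from nervous tissue, of which 28 were in the file, was set beside the members. It includes other arms of the members' own families, among them miR-129-1-3p and miR-129-2-3p, so it is not an independent set. In cells 13 of the listed arms were identified in both libraries, of which 5 were below 0.5, 0 above 2 and 12 below 1. Of all 316 miRNAs, 88 were below 0.5, 4 above 2 and 274 below 1. The median ratio was 0.594 for the list beside 0.612 for all 316 miRNAs. The median of the 5 members was 0.316. Scaled to the miRNA total, none of the 13 was below 0.5, and the medians were 1.13 for the list, 1.16 for all miRNAs and 0.598 for the members. Among the more abundant were miR-218a-5p, known from motor neurons, with 532 and 295 RPM (ratio 0.556, 0.533 to 0.579), and miR-128-3p, an abundant brain miRNA, with 347 and 206 RPM (0.594, 0.565 to 0.624). miR-598-3p had 39.4 and 16.2 RPM (0.411, 0.347 to 0.486).

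Of the remaining listed arms with at least 50 reads in 1 library, miR-132-3p, induced by neuronal activity, had 8.75 and 7.60 RPM in normoxic and hypoxic cells (0.869, 0.648 to 1.17). miR-219a-5p, known from oligodendrocytes, had 6.63 and 2.33 RPM (0.352, 0.223 to 0.545), and miR-219a-1-3p had 6.92 and 3.01 RPM (0.435, 0.288 to 0.649). miR-134-5p was listed at 0 in normoxic cells and normoxic exosomes and had 6.77 RPM in hypoxic cells and 4.13 RPM in hypoxic exosomes. These values are spread over both sides of the ratio of all miRNAs.

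In exosomes the list held less of the reads. Under hypoxia 5 of the 28 were identified in cells and exosomes, and their exosome to cell ratios of shares were 0.218 (0.142 to 0.320) for miR-218a-5p, 0.276 (0.175 to 0.415) for miR-128-3p, 0.283 (0.194 to 0.401) for miR-129-1-3p, 13.1 (6.87 to 24.0) for miR-219a-1-3p and 18.6 (12.9 to 26.6) for miR-134-5p. The first 3 were abundant in cells and low in exosomes, as was miR-7a-5p. At their shares in cells, miR-219a-1-3p and miR-134-5p would have had 1.22 and 2.74 reads in hypoxic exosomes. With the read minimum, a ratio listed for either had to lie above 2, so nothing is read from their high ratios. The median over the 5 was 0.283, beside 1.51 for all 138 miRNAs and 12.4 for the 4 members. These medians hold only miRNAs that passed the read minimum, which for arms scarce in cells lets only high ratios be listed. No difference between the list and the members is read from them. Under normoxia miR-128-3p was the only one identified in both, from 19 reads in exosomes, with a ratio of 2.06 (1.24 to 3.21). Its share in cells gives 9.24 reads, under the read minimum, so a lower share in exosomes could not have been listed.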

How the data were processed

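Small RNA-seq was analysed for 4 libraries, normoxic and hypoxic H9c2 cells and their exosomes, 1 each. The authors enriched RNA of 18 to 30 nucleotides, ran an Illumina sequencer and deposited a table of RPM with 765 rat mature miRNAs annotated in miRBase 21. Rnor 6.0 is the build named in the submitters' processing notes. Not given in the sources used here were the aligner, the counter and the reads that set the scale. The methods state n = 4 at RNA extraction, without saying whether a library pools 4 cultures.

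Reads were recovered as whole steps of the deposited RPM (100% of values within 0.1), and no count model was fitted. A ratio needed 10 or more reads in each of its libraries. Step recovery and interval coverage were checked with simulated libraries. The members and lists were chosen with earlier results of these data known. The named miRNAs were the 8 members, listed neuronal arms with at least 50 reads in 1 library, and the 3 miRNAs nearest in pattern to each member found in all libraries. Alternatives were 4 other scalings, a pseudocount of 1 RPM, a fold of 1.5, other read minimums and summed miR-9 3p arms. The trimmed mean of M values was coded anew, with 30% of ratios and 5% of levels trimmed. RefSeq (GRCr8) gave sequences, hairpins and overlapping genes. The software was scipy 1.17.1, numpy 2.4.6, matplotlib 3.10.9 and pandas 2.3.3 under Python 3.11.15.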

Additional observations from a re-analysis of the deposited data

Results flagged for a closer look

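In RPM, 3 of the 4 members identified in all libraries were lower under hypoxia in cells and higher in exosomes. So were the only listed neuronal arm identified in all libraries and all the miRNAs named as nearest in pattern. Of the 71 miRNAs identified in all libraries, 63 (88.7%) had this pattern. The nearest were picked on these same values, so nothing is read from their direction. The exosome ratio divided by the cell ratio was 36.1 for miR-129-5p, 8.89 for miR-7a-5p and 4.12 for miR-9a-5p, and 1.96 for the listed arm miR-128-3p. Of the nearest in pattern, it was 25.9 for miR-125b-1-3p, 20.8 for miR-760-3p, 19.2 for miR-151-5p, 10.04 for let-7c-5p, 9.04 for miR-22-3p, 5.90 for let-7a-5p, 5.21 for miR-99a-5p, 4.37 for miR-193a-5p and 3.87 for let-7g-5p. Over the 71 miRNAs identified in all libraries the median of this value was 11.6, with a range from 0.843 to 66.7. Whether the ratios differ between cells and exosomes was not tested, with 1 library a condition. What miRNAs made up of all reads on the scale moved the same way, from 51.0% to 26.9% in cells and from 0.115% to 0.881% in exosomes. As shares of miRNA reads, miR-129-5p had ratios of 0.501 in cells and 1.24 in exosomes, whereas miR-128-3p had 1.13 (1.07 to 1.18) in cells and 0.151 (0.0788 to 0.294) in exosomes, the reverse order.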

How the results depend on the processing

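The count of members below 0.5 in cells was 4 in RPM, 1 when scaled to the miRNA total. It was 2 with the median ratio set to 1, with the trimmed mean of M values and with the total taken without miR-21-5p. It was 4 or 5 with the other alternatives. The count above 2 in exosomes was 1 in RPM, 0 under each of these 4 scalings and 2 with a fold of 1.5. The other neuronal arms below 0.5 in cells were 5 in RPM, 0 by shares of the miRNA total and 3 with at least 50 reads in 1 library. The count of members with an exosome to cell ratio above 2 was 3 in each condition by shares and 0 in RPM. By shares, the read minimum fixed the calls of the miR-9 arms. The ratio turned from above to below 1 in RPM for miR-129-5p (0.0199 in normoxia, 0.719 in hypoxia), miR-9a-5p (0.101 and 0.418) and miR-9b-3p (0.188 and 0.396), because miRNAs were a smaller share of the exosome reads. Ratios within a library do not depend on scaling. No paired analysis was possible because each condition was 1 library. Depth limited the miR-9 arms and miR-7a-5p in exosomes, with 20 to 74 reads, and miR-7a-1-3p and miR-7b, which had 30 to 54 reads in cells or fewer than 10.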

Other observations

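miR-7a-5p and miR-9a-5p had the same share of G and C bases, 34.8%. miR-129-5p had 57.1% and miR-9b-3p 33.3%. Across miRNAs identified in cells and exosomes with a known sequence, the log2 exosome to cell ratio of shares and the G and C content had a Spearman rho of 0.260 (Pearson r 0.176, 65 miRNAs) under normoxia and 0.475 (Pearson r 0.466, 127 miRNAs) under hypoxia. Without the members rho was 0.319 and 0.506. Only miRNAs that passed the read minimum in both libraries enter, which for those scarce in cells lets only high ratios be listed. The points are miRNAs of the same libraries and not replicates. The values are given as a description, and no trend with G and C content is read from them.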
